A study of Mus musculus with 816 samples.

Results

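The genes described here are 10 antioxidant target genes of the transcription factor NRF2: Hmox1, Slc7a11, Gclc, Gclm, Gsr, Txnrd1, Srxn1, Prdx1, Nqo1 and Sqstm1. They were taken by symbol from both deposited tables and all were found, 10 of the 45581 genes listed for cultures and 10 of the 29858 listed for mice. NRF2 is held at a low level by KEAP1 in resting cells and enters the nucleus when oxidants or electrophiles modify KEAP1. There it pairs with small MAF proteins on antioxidant response elements and raises genes that make glutathione, recycle thiols, detoxify quinones and break down heme. In microglia, the resident macrophages of the brain, this program accompanies oxidative stress and several inflammatory states. Hmox1 and Slc7a11 also respond to other factors, among them BACH1 and ATF4.

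The study profiled 784 cultures of commercial primary neonatal mouse microglia grown in multiwell plates, and microglia of 32 C57BL/6 mice, by sequencing the 3′ ends of transcripts. Cultures were left untreated (None) or received single or combined agents for 4, 24 or 72 h, in 98 groups on 10 plates from 3 lots of cells. The agents described most here were HDL at 2 ug/ul, P3C (Pam3CysSerLys4) at 0.001 ug/ul, dopamine at 100 uM, norepinephrine at 1 uM, resveratrol at 50 uM, rapamycin at 5 nM, LPS_hi at 0.0001 ug/ul and LPS_lo at 0.00001 ug/ul. Others were TNFa at 0.000004 ug/ul, IFNa at 0.0008 ug/ul, IFNb, IFNg, TGFb and CCL7 at 0.0001 ug/ul, IL4, IL10 and IL13 at 0.00005 ug/ul, s100B at 0.00003 ug/ul, PGE2 at 0.001 ug/ul, GABA and MPP at 100 uM, and nicotine and ATP at 1000 uM. For combinations the labels give a single dose. Microglia of female mice of 2 months were collected 4 h after an intraperitoneal injection of PBS (n = 4) or LPS at 2 mg/kg (n = 4), and those of naive male mice at 2 months (n = 11) or 22 months (n = 13), by Percoll gradient and CD11b magnetic sorting. The cultured cells came from newborn brain, were bought in lots, and had no other brain cells around them, which limits them as a model of adult microglia. Wells of a group came from 1 or more plates and lots, and the labels do not tie wells to separate cell preparations, so the p-values below measure the spread between wells, which may be partly technical.

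Values are CPM, the reads of a gene scaled to 1000000 mapped reads, a level within one library. Differences are log2 fold changes on the log2(CPM + 1) scale, which understates changes of low genes such as Nqo1, and are given with a standard error (SE) from limma. A gene was called in cultures when the Benjamini-Hochberg adjusted p over all genes tested was under 0.05 and the difference was at least 2-fold. In mice, and between well positions, the adjusted p alone decided. The depth estimated from the step between low values was 1.00 to 38.2 M reads in cultures (median 4.67 M) and 2.36 to 7.78 M in mice (median 4.08 M). The 10 microglia markers checked, among them P2ry12, Tmem119 and Csf1r, summed to 5000 to 11828 CPM in untreated 24 h cultures and to 45784 to 57019 CPM in PBS mice. In bulk samples such as these, fewer cells of a type and less RNA per cell cannot be told apart.

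The members lie on autosomes of the mouse genome (GRCm38): Hmox1 at chr8:75093621-75100589, Slc7a11 at chr3:49892526-50443614, Gclc at chr9:77754535-77794485, Gclm at chr3:122245557-122270732, Gsr at chr8:33652523-33698163, Txnrd1 at chr10:82833951-82897712, Srxn1 at chr2:152105516-152111376, Prdx1 at chr4:116685544-116700822, Nqo1 at chr8:107388225-107403206 and Sqstm1 at chr11:50199366-50210827. RefSeq promoter windows of 300 bases (250 before the gene start and 50 after it, GRCm38.p6) were available for 7 members, and none was available for Hmox1, Gclc and Gsr. The core of the antioxidant response element, TGACNNNGC or its reverse complement GCNNNGTCA, was searched on both strands. These 7 members had 9 windows, and the core was present in 4 of the 9, against 12.4% of 32851 windows of all genes. The 4 windows belonged to 4 of the 7 members. The Txnrd1 window with the match lies at a transcript start inside the locus given above and not at its first base. The matches are shown because the members are grouped by their regulation through this element. Each is read from the plus strand with 10 bases on either side, and capitals mark the match.
Srxn1, chr2:152105542-152105570, plus strand: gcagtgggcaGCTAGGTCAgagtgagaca
Gclm, chr3:122245413-122245441, plus strand: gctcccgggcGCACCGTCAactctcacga
Prdx1, chr4:116685456-116685484, plus strand: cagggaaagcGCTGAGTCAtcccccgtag
Txnrd1, chr10:82859104-82859132, plus strand: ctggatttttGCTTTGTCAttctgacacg

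The related AP-1 type element TGAGTCA, with TGACTCA as its reverse complement, was present in 2 of the 9 member windows, against 5.2% of all windows. They belonged to 2 of the 7 members, Srxn1 and Prdx1, with 2 matches in each. One of the Prdx1 matches overlapped the antioxidant response element match above, and the other matches did not. Capitals mark the element.
Srxn1, chr2:152105412-152105438, plus strand: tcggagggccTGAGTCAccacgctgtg
Srxn1, chr2:152105469-152105495, plus strand: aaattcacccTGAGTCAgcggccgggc
Prdx1, chr4:116685352-116685378, plus strand: aacgaggaaaTGACTCAaagggcagtg
Prdx1, chr4:116685458-116685484, plus strand: gggaaagcgcTGAGTCAtcccccgtag

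These matches describe the letters of the windows and were not tested as binding sites.

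The position of a well on its plate moved the members before any agent was added. In untreated cultures at 24 h, 6 of the 10 members were higher in the 10 wells at the edge of a plate than in the 30 wells in its middle, in a limma fit with plate as a term, and none was lower. MG160901 held 3 of these edge wells and none in the middle, and MGm161010A held 4 of the middle wells and none at the edge. With plate as a term these 2 plates do not inform the difference. MGm160926A and MGm160926B held 1 edge well each. In the same comparison 1.02% of all 11986 genes tested passed, and 0.292% passed as higher. Gclm, the modifier subunit of glutamate-cysteine ligase, ranged from 376 through a median of 712 to 2062 CPM in edge wells and from 188 through 357 to 598 CPM in middle wells. The median edge well lay above every middle well. Its difference was 1.64 (SE 0.14, adjusted p = 4.2e-13). Slc7a11, the cystine import subunit of system xc-, was 16.2, 27.7 and 54.6 CPM at the lowest, the median and the highest edge well and 3.1, 19.4 and 46.6 CPM in the middle, so that most wells overlapped. It differed by 1.29 (SE 0.33, adjusted p = 0.0268).

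The thiol recycling genes followed the same direction. Srxn1, the sulfiredoxin that repairs overoxidised peroxiredoxins, was 94.5, 149 and 348 CPM at the lowest, the median and the highest edge well and 47.3, 92.9 and 139 CPM in the middle, a difference of 0.99 (SE 0.18, adjusted p = 0.00028). Txnrd1, which reduces thioredoxin, was 48.3, 59.8 and 74.5 CPM in edge wells and 12.9, 30.2 and 65.0 CPM in middle wells, and differed by 0.86 (SE 0.19, adjusted p = 0.0053). Edge and middle wells overlapped for both genes, but the median edge well of Srxn1 lay above every middle well. Prdx1, a peroxide-removing peroxiredoxin, was 1613, 2095 and 3121 CPM against 579, 1229 and 2121 CPM and differed by 0.70 (SE 0.15, adjusted p = 0.0030). Sqstm1, the autophagy receptor p62 that binds KEAP1, differed by 0.87 (SE 0.13, adjusted p = 8.4e-06). The values that did not pass were 0.72 for Gsr, glutathione reductase (adjusted p = 0.33), 0.62 for Gclc, the catalytic subunit of glutamate-cysteine ligase (0.089), 0.39 for Hmox1, heme oxygenase 1 (0.22), and 0.32 for Nqo1, a quinone reductase (0.97).

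At 72 h no plate held untreated wells in both positions, and plate and position cannot be told apart in these wells alone. The 15 untreated edge wells, on 3 plates, had Gclm at 3335, 4689 and 6173 CPM (lowest, median and highest) and the 10 untreated middle wells, on another plate, had 243, 287 and 366 CPM. Srxn1 was 336, 537 and 861 CPM at the edge and 36, 55.5 and 73.8 CPM in the middle. Gclc was 117, 157 and 257 CPM at the edge and 20.7, 35.9 and 50.1 CPM in the middle. These 3 genes, and Slc7a11, Txnrd1, Sqstm1 and Prdx1, did not overlap between the positions, while Hmox1, Gsr and Nqo1 did.

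All cultures, with terms for group and plate, gave an estimate at both times, an analysis chosen after the data had been seen. At 4 and 24 h all 10 members were higher at the edge, with 3.02% of all genes higher, from 0.41 for Hmox1 and 0.58 for Gclc to 1.05 for Srxn1 and 1.29 for Gclm. At 72 h all 10 were higher, with 11.7% of all genes higher, from 1.07 for Sqstm1 and 1.09 for Hmox1 to 2.17 for Slc7a11, 2.22 for Srxn1 and 2.51 for Gclm. The difference between the times was itself called for all 10 members, against 5.33% of all genes in that direction, and was 1.39 for Gclc, 1.22 for Gclm and 0.48 for Sqstm1. Without MGm161010C and MGm161010D, the plates whose libraries were pooled by position, the 72 h differences were 0.78 to 2.00 and all 10 were called (3.01% of all genes higher), but the difference between the times was called for 7 of 10 (1.15% of all genes higher) and not for Nqo1, Sqstm1 and Txnrd1.

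Within single plates, edge wells were higher in 99 of 100 pairs of a member and a plate, and the exception was Gclc on MGm160926B at -0.01. The median over the members was 0.36 to 0.57 on 4 of the plates at 4 and 24 h, 0.92 on MGm161010A and 1.41 on MGm161010B, and 1.14 to 2.16 on the 4 plates at 72 h. The 4 plates at 72 h and MGm161010B held cells of one lot, so that time and lot cannot be told apart except on MGm161010B.

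**Figure D1:**
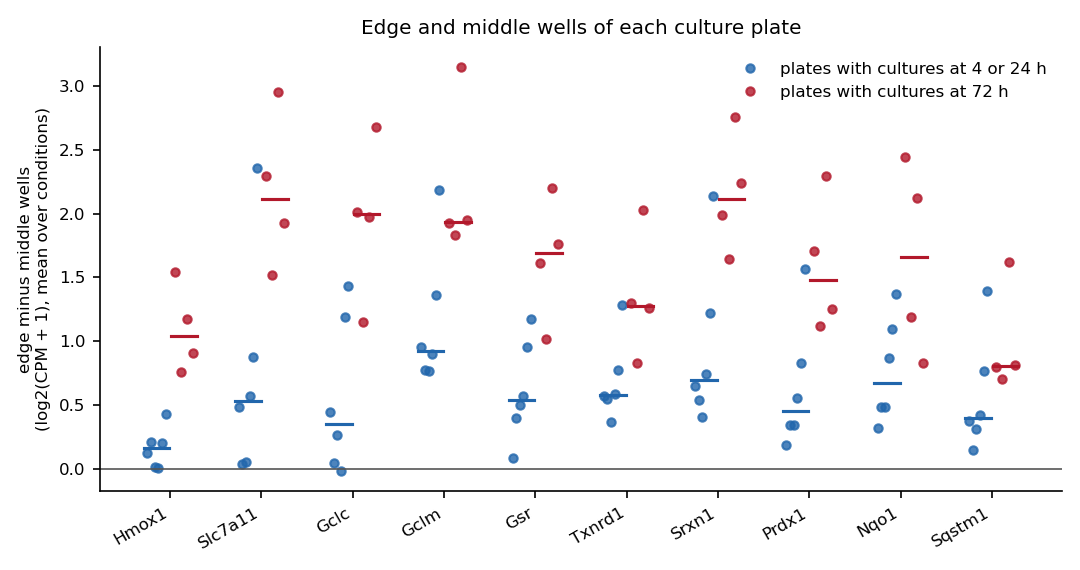
Each point is 1 plate and gives the mean difference of edge and middle wells on the log2(CPM + 1) scale, averaged over the conditions that the plate held in both positions; blue points are 6 plates with cultures at 4 or 24 h, red points 4 plates with cultures at 72 h, and lines are medians. All points but 1 of Gclc at -0.01 lie above 0, and the 72 h plates reach 2.95 for Slc7a11 and 3.14 for Gclm.

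Other genes of the pathway, counted from a list of 40 further NRF2 targets, moved with position in the same analysis of all cultures. At 4 and 24 h 25 of the 39 tested were higher and 1 was lower, where 3.02% of all genes were higher. The median over the 39 was 0.31 against -0.01 for all genes, and among them were Cat (catalase) at 0.88, Esd at 0.73, Osgin1 at 0.68 and Cbr3 (a carbonyl reductase) at 0.67. At 72 h 29 were higher and 1 was lower (median 0.58 against -0.02), where 11.7% of all genes were higher. Slc40a1, the iron exporter ferroportin, led them at 1.71. Of 11 regulators of NRF2, 4 were higher at 4 and 24 h, among them Mafk at 0.43 and Mafg at 0.22, whereas Nfe2l2 (which encodes NRF2), Keap1 and Bach1 were not called. Targets of ATF4, the amino acid stress factor, also rose at the edge, 10 of 15 at 4 and 24 h, including Chac1 at 1.60 and Trib3 at 1.12. Microglia markers moved the other way, with 9 of 10 lower at 4 and 24 h and 8 of 10 lower at 72 h. No share of all genes lower at the edge is given beside these marker counts. The markers summed to a median of 5808 CPM in untreated edge wells at 24 h against 8429 CPM in middle wells. Estimated depth also moved with position, with medians of 5.31 M reads at the edge and 4.47 M in the middle at 24 h, and the part of either in the member differences was not tested.

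Position bears on the culture comparisons below because conditions were not spread evenly over the plate. Each is given first as fitted over all wells of a condition with no term for plate or position. The study names no such term for its own comparisons, which used a negative binomial model of control samples and not limma. Main results are given again with terms for plate and edge, and in middle wells alone, both chosen after the data had been seen. At 72 h all untreated middle wells lay on MGm160930B, so that a value in middle wells at 72 h cannot be told apart from a difference between plates. Comparisons with untreated cultures share the same 40 wells at 24 h and the same 25 at 72 h, and the additions to LPS share the wells with that LPS dose and time.

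HDL, high-density lipoprotein, raised more members at 24 h over all wells than any other single agent of the panel, though not in middle wells alone, where HDL had 3 called, TNFa 4 and P3C 6. Of the 10 members 8 rose and none fell, where 0.301% of all 16935 genes tested rose. Gclm was 1146, 1978 and 3368 CPM (lowest, median and highest of 8 wells) with HDL and 188, 389 and 2062 CPM in the 40 untreated wells, a difference of 2.15 (SE 0.38, adjusted p = 4.1e-05). Srxn1 was 324, 365 and 510 CPM with HDL and 47.3, 96.9 and 348 CPM without, a difference of 1.90 (SE 0.35, adjusted p = 0.00011). Slc7a11 was 64.4, 113 and 209 CPM with HDL and 3.1, 23 and 54.6 CPM without, a difference of 2.39 (SE 0.45, adjusted p = 0.00014). The groups overlapped for Gclm through 2 untreated edge wells and for Srxn1 through 1, all on MGm161010B, and did not overlap for Slc7a11.

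Glutathione synthesis and recycling rose together with these genes. Gclc was 96.7, 167 and 206 CPM with HDL against 22.8, 60.3 and 124 CPM untreated and rose by 1.43 (SE 0.36, adjusted p = 0.016). Gsr rose by 1.55 (SE 0.35, adjusted p = 0.0045) and Prdx1 by 1.09 (SE 0.26, adjusted p = 0.010). Nqo1 rose by 2.40 (SE 0.55, adjusted p = 0.0064) from low levels, and Txnrd1 by 1.02 (SE 0.29) with an adjusted p of 0.0498 at the edge of the threshold. Hmox1 differed by 0.96 (adjusted p = 0.031), which is under 2-fold, and Sqstm1 by 0.70 (adjusted p = 0.26).

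The 8 HDL wells were 4 edge wells on MGm160926A and 4 middle wells on MGm161010A. On MGm161010A, among middle wells, Gclm was 1145 to 1297 CPM with HDL and 225 to 325 CPM untreated, Srxn1 was 324 to 370 CPM and 47.3 to 101 CPM, and Slc7a11 was 64.4 to 110 CPM and 11.7 to 30.1 CPM. On the same plate Hmox1 was 638 to 955 CPM with HDL and 317 to 380 CPM untreated, and Nqo1 was 5.05 to 21.5 CPM and 0 to 1.85 CPM. None of these 5 genes overlapped between HDL and untreated wells there. With plate and edge terms 9 members were called, all but Sqstm1 (0.437% of all genes rose), and Hmox1 was among them at 1.10. In middle wells alone 3 were called, Slc7a11 at 2.18, Srxn1 at 1.91 and Gclm at 1.82 (0.324% of all genes). Among the other NRF2 targets 9 of 39 rose and none fell, with a median of 0.70 against 0.00 for all genes, led by Osgin1 at 1.71, Cat at 1.57, Cbr3 at 1.57 and Taldo1, of the pentose phosphate pathway, at 1.46, while none of the 11 regulators was called. At 72 h Srxn1 alone was called with HDL, at 2.12 (SE 0.39, 1035 ± 398 CPM, SD, n = 7, against 361 ± 276 CPM, n = 25), where 0.372% of all genes rose. In the 2 middle wells Gclm was called too, at 2.85 (0.405% of all genes rose).

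P3C, a ligand of TLR2, raised 6 members at 24 h, where 3.22% of all genes rose. Slc7a11 was 149, 305, 311, 395, 494 and 1024 CPM in the 6 wells and at most 54.6 CPM in any untreated well, a difference of 4.14 (SE 0.51, adjusted p = 1.6e-13). Gsr rose by 2.10 (SE 0.40), Srxn1 by 1.92 (SE 0.40), Nqo1 by 1.86 (SE 0.63), Gclm by 1.74 (SE 0.43) and Txnrd1 by 1.58 (SE 0.32), while Gclc was at -0.81 (adjusted p = 0.14) and Hmox1 at 0.43 (adjusted p = 0.31). The calls were 5 with plate and edge terms (3.59% of all genes) and 6 in the 2 middle wells alone (3.84%). With P3C 7 of 10 microglia markers fell, where 16.9% of all genes fell. Both neutrophil markers tested rose, with a summed neutrophil level of 1.9 to 83.7 CPM against 0 to 9.2 CPM untreated. Perivascular macrophage markers summed to a median of 1.66 CPM with P3C, with 1 of 3 called lower, against 74.7 CPM untreated. The part of these lists in the member values was not tested.

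TNFa raised 4 members at 24 h (1.45% of all genes rose): Slc7a11 by 2.20, Prdx1 by 1.20, Srxn1 by 1.19 and Txnrd1 by 1.11. With plate and edge terms Slc7a11 and Srxn1 were called and no other member (1.38% of all genes). MPP raised Slc7a11 alone, by 2.10 (101 ± 50.3 CPM, SD, n = 8, against 24.7 ± 13.9 CPM, n = 40), with 4.72% of all genes called in either direction. Sqstm1, at 1.32, was called too with plate and edge terms.

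Type I interferons lowered members at 24 h. With IFNb at 24 h 5 members fell and none rose, where 3.81% of all genes fell. Gclm was 51.0, 88.7 and 162 CPM (lowest, median and highest of 10 wells), below all 40 untreated wells, and fell by 2.12 (SE 0.35, adjusted p = 1.2e-07). Txnrd1 was 5.1, 10.1 and 19.6 CPM against 12.9, 36 and 74.5 CPM untreated and fell by 1.80 (SE 0.26, adjusted p = 6.7e-10). Gclc fell by 1.37, Slc7a11 by 1.21 and Hmox1, at 133, 248 and 338 CPM against 265, 493 and 1819 CPM, by 1.18.

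With IFNa 4 members fell, Gclc by 1.79, Gclm by 1.54, Hmox1 by 1.08 and Txnrd1 by 1.04, where 7.87% of all genes fell. With plate and edge terms the call of Txnrd1 was lost (8.37% of all genes fell). IFNg gave a mixed pattern, with Hmox1 lower by 1.24 (224 ± 47.2 CPM, SD, n = 9) and Prdx1 higher by 1.06, and 8.06% of all genes called. With IFNb 8 of the 39 other NRF2 targets fell and none rose, with a median of -0.60 against -0.10 for all genes. Among the regulators Keap1, the NRF2 inhibitor, rose by 1.58, and the small MAF genes Maff and Mafg were lower at -1.89 and -1.14. The IFNb calls were 4 with plate and edge terms, without Hmox1 (3.66% of all genes), and 5 in middle wells (3.75%), and Hmox1 was not called with IFNg either under plate and edge terms. At 72 h IFNa had 1 member higher, Sqstm1 at 1.09, and none lower over all wells (2.85% of all genes rose). IFNb at 72 h, in 4 middle wells of 1 plate, had 4 lower over all wells, 2 with plate and edge terms and 0 in middle wells, where 0.862%, 1.85% and 1.94% of all genes fell.

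Over the 36 agents without LPS at 24 h, 27 had no member called. Of the 360 pairs of a member and an agent 22 rose and 11 fell, against 0.962% and 1.39% of all pairs of a gene and an agent. With plate and edge terms 25 rose and 11 fell (0.747% and 1.24% of all pairs), and in middle wells 18 rose and 13 fell (1.08% and 1.36%).

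**Figure D2:**
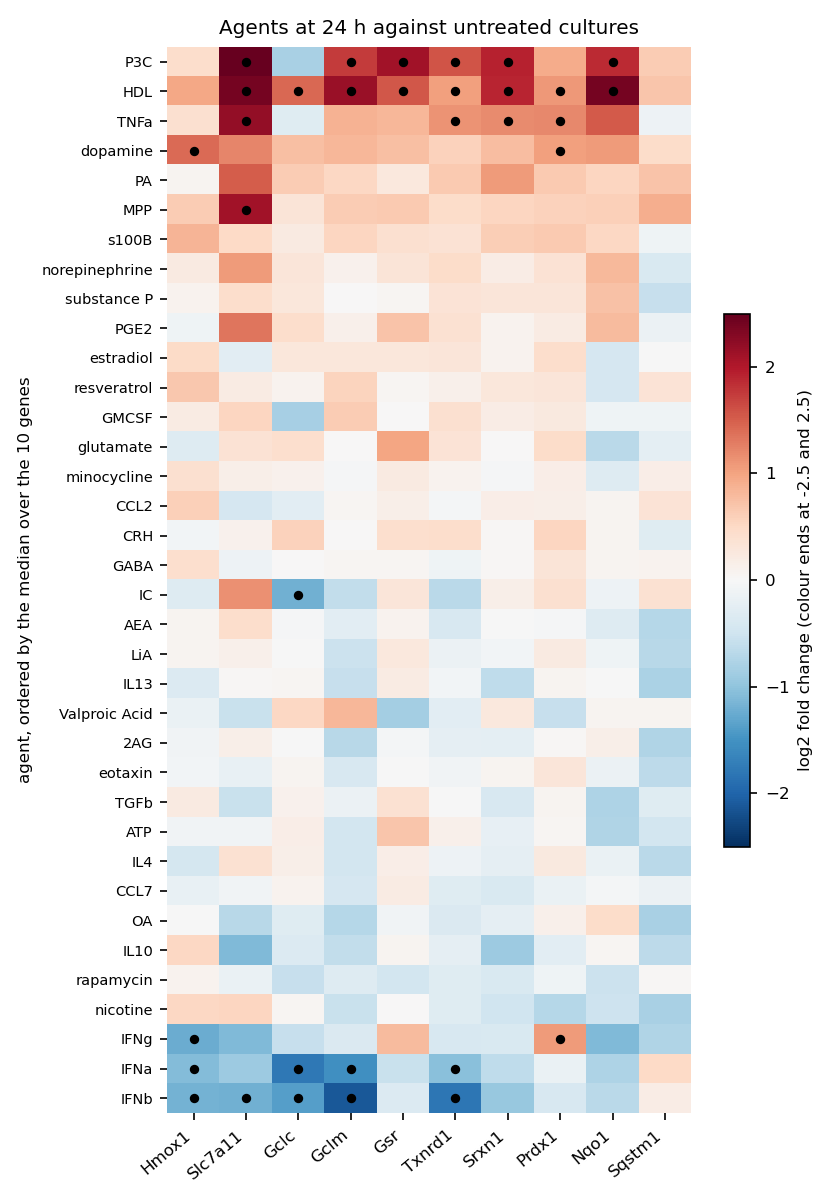
Colour gives the log2 fold change of each member (columns) with each of 36 agents without LPS at 24 h against the same 40 untreated cultures, ordered by the median over the 10 genes, and black dots mark called changes. P3C, HDL and TNFa stand at the top with 6, 8 and 4 members called as higher, and IFNa and IFNb at the bottom with 4 and 5 called as lower.

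Dopamine gave the highest Hmox1 levels of all 784 cultures. The 9 wells at 24 h fell into 3 on MGm160926A, all at the edge, with 9596, 11377 and 12900 CPM, and 6 on MG160831 and MG160901 with 392 to 654 CPM (median 497). The first 3 took ranks 1 to 3 of all cultures, ahead of 7247 CPM in a P3C well at 72 h, whereas the other 6 lay within the untreated range of 265 to 1819 CPM. Of these 6, 1 well on MG160901 lay at the edge too and had 654 CPM. MGm160926A held another lot of cells than MG160831 and MG160901, so that lot and plate cannot be told apart between these wells. The part of position on MGm160926A was not tested. Over all 9 wells Hmox1 differed by 1.42 (SE 0.24, adjusted p = 8.6e-06) and Prdx1 by 1.02 (SE 0.25, adjusted p = 0.0071), 2 of 10 members, where 1.35% of all genes were called and 0.685% rose.

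The 3 wells with the high Hmox1 levels were high in other members too. Gclm was 2861 to 2995 CPM in them and 299 to 574 CPM in the other 6 wells, Prdx1 was 5716 to 6868 CPM and 1143 to 3020 CPM, and Nqo1 was 33.8 to 54.3 CPM and 0 to 5.99 CPM. None of these genes overlapped between the 3 wells and the 6. The other 30 edge wells of MGm160926A had Hmox1 at 331, 759 and 4932 CPM (lowest, median and highest), and the highest among them held s100B (2733 to 4932 CPM), MPP (1804 and 3502 CPM) and HDL (1079 to 1930 CPM). The single untreated edge well of that plate had 404 CPM. No dopamine well lay in the middle of MGm160926A. Middle wells alone, 5 with dopamine, gave an Hmox1 difference of -0.018 and no member was called (2.16% of all genes were), while plate and edge terms gave 3 calls, Hmox1 at 1.55, Slc7a11 at 1.16 and Gclm at 1.01 (0.325% of all genes rose). Of the other NRF2 targets 2 of 39 rose over all 9 wells, Osgin1 by 1.73 and Esd by 1.26.

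Norepinephrine, the other catecholamine of the panel, was given at 1 uM and not at 100 uM, so the values stand side by side without a comparison. Its 7 wells had Hmox1 at 452, 584 and 794 CPM (lowest, median and highest) and Gclm at 207, 330 and 1428 CPM, and no member was called at 24 h (0.0886% of all genes were). The 2 norepinephrine wells at the edge of MGm160926A had Hmox1 at 776 and 794 CPM.

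Resveratrol, a plant polyphenol, was added alone and with LPS_lo. Alone, no member was called at 24 h in 11 wells, where 0.561% of all genes were. Hmox1 was 400, 850 and 1882 CPM (lowest, median and highest) and differed by 0.68 (SE 0.22, adjusted p = 0.16), and Gclm differed by 0.56 (adjusted p = 0.77). The 3 edge wells had Hmox1 at 1760, 1773 and 1882 CPM and Gclm at 2398, 3025 and 3595 CPM, and the 8 middle wells had 400 to 1051 CPM and 205 to 629 CPM, without overlap in either gene.

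**Figure D3:**
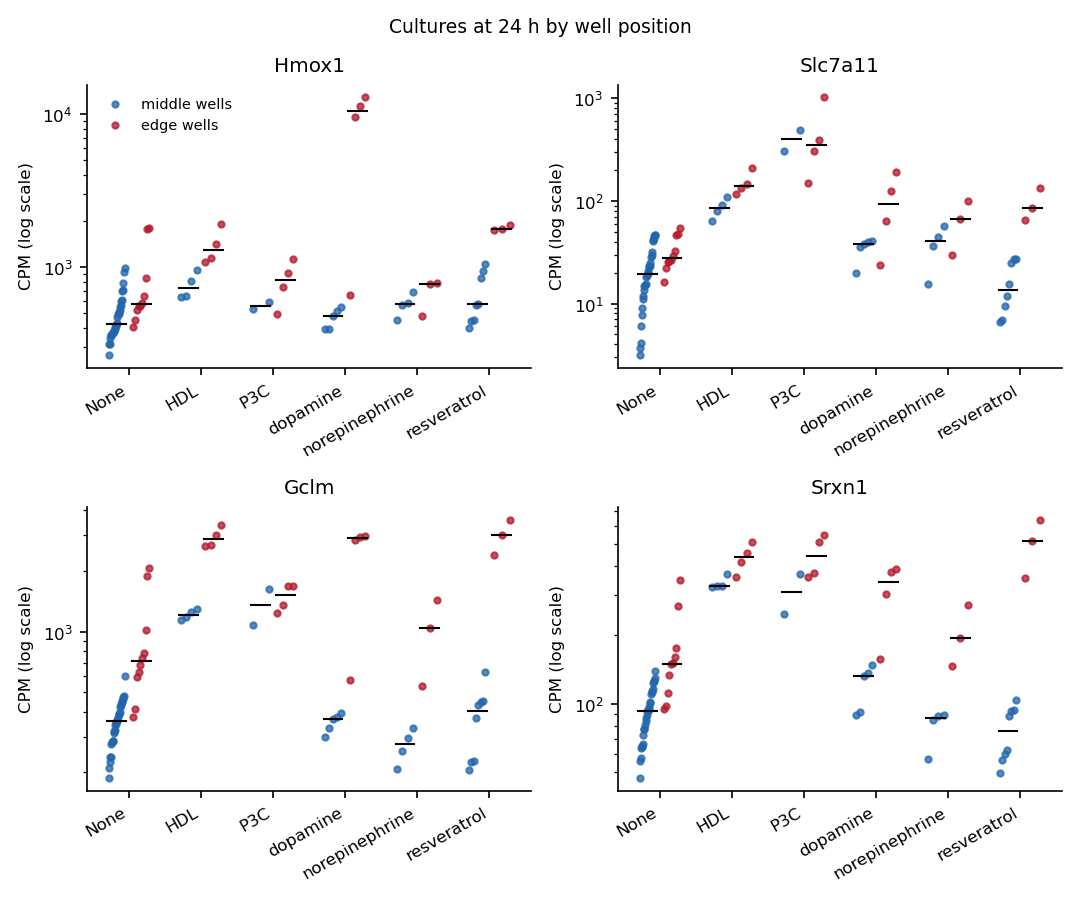
Points are single cultures at 24 h, on a log axis of CPM, in middle wells (blue) and edge wells (red), spread sideways in order of value, with a black line at each median. The dopamine edge wells on MGm160926A reach 12900 CPM for Hmox1, and the dopamine edge well on MG160901 is at 654 CPM. The dopamine middle wells, all on other plates than MGm160926A, stay at or under 553 CPM. HDL lies above the untreated wells of the same position for Slc7a11 in both positions.

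Added to LPS_lo, resveratrol raised Srxn1. The 8 wells with both had Srxn1 at 184, 185, 200, 222, 250, 250, 460 and 1531 CPM, of which the last 2 were edge wells. The 7 wells with LPS_lo alone had 36.8, 60.8, 81.1, 82.1, 96.6, 135 and, at the edge, 370 CPM. Every middle well with both lay above every middle well with LPS_lo alone. The difference was 1.64 (SE 0.47, adjusted p = 0.0494), 1 of 10 members, where 0.815% of all genes were called. Txnrd1 differed by 1.22 with an adjusted p of 0.090 and passed with plate and edge terms at 1.07 (adjusted p = 0.0081), together with Srxn1 at 1.51 (1.67% of all genes called). In middle wells alone Srxn1 was at 1.47 (adjusted p = 0.00032; 0.823% of all genes called). Srxn1 was not called in 4 of the other settings tried, which are given with the dependence on processing. The resveratrol difference with LPS_lo was not called as different from that without LPS_lo for any member over all wells (Srxn1 1.37, SE 0.56, adjusted p = 0.42), where 0.313% of all genes were called, and was so for Srxn1 in middle wells alone, at 1.74 (0.754% of all genes).

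Rapamycin, an mTORC1 inhibitor, lowered Hmox1 when it was added to LPS_lo. Hmox1 was 197, 223, 224, 353, 371, 441 and 461 CPM in the 7 wells with both and 1020, 1277, 1370, 1399, 1506, 1710 and 2054 CPM with LPS_lo alone, without overlap. It fell by 2.23 (SE 0.35, adjusted p = 2.6e-06), the only member called, where 0.171% of all genes were called and 0.0709% fell. Slc7a11 was at -1.34 (adjusted p = 0.88), Gclm at -1.34 (0.60) and Sqstm1 at -1.04 (0.35), and of these Gclm (adjusted p = 0.0014) and Sqstm1 (0.0044) passed with plate and edge terms, where 0.455% of all genes did. Given alone, rapamycin left Hmox1 at 570 ± 172 CPM (SD) against 575 ± 331 CPM untreated, a difference of 0.08 (SE 0.22, adjusted p = 1), and none of the members was called (0.1% of all genes were). Of 15 ATF4 targets 2 fell when rapamycin was added to LPS_lo, Trib3 by 2.47 and Atf4 itself by 1.41, with a median of -1.09 over the list against -0.03 for all genes.

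LPS, the TLR4 ligand, moved members in opposite directions. At 24 h with LPS_hi 3 members rose and 2 fell, where 16.2% of all genes were called, 5.25% higher and 10.9% lower. Hmox1 was 674, 1218 and 2224 CPM in 18 wells against 265, 493 and 1819 CPM in 40 untreated wells, overlapping in part, and rose by 1.15 (SE 0.19, adjusted p = 1.7e-08). On MG160831, LPS_hi left Hmox1 at 674 to 830 CPM in 3 edge wells and 1161 to 1486 CPM in 3 middle wells, without overlap, a difference that was not tested. Slc7a11 was 22.2, 91.6 and 582 CPM and rose by 2.36 (SE 0.33, adjusted p = 3.7e-11). Gsr was 58.3, 95 and 229 CPM against 11, 36.9 and 90.4 CPM and rose by 1.40 (SE 0.26, adjusted p = 7.2e-07). Its median with LPS_hi lay above every untreated well.

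Gclc moved down in the same wells. It was 8.9, 26.5 and 42.0 CPM against 22.8, 60.3 and 124 CPM, so that the highest LPS_hi well was below the median of the untreated wells, and fell by 1.25 (SE 0.26, adjusted p = 1.9e-05). Nqo1 fell by 1.14 (adjusted p = 0.020) at levels near 0, with a median of 0.17 CPM against 3.15 CPM, and this call was not made with plate and edge terms. Gclm (-0.19), Srxn1 (-0.15) and Txnrd1 (0.04) had adjusted p of 0.69, 0.75 and 0.92. Sqstm1 passed the p threshold at 0.61 (adjusted p = 0.0052), under 2-fold.

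LPS_lo gave the same 5 calls at 24 h, where 15% of all genes were called: Slc7a11 at 2.38, Gsr at 1.57 and Hmox1 at 1.48 as higher and Gclc at -1.65 and Nqo1 at -1.58 as lower. The call of Nqo1 was lost with plate and edge terms, at -1.29 (adjusted p = 0.057), and in 7 of the other 11 settings tried. Hmox1 was 1020 to 2054 CPM in its 7 wells and Gclc 9.9 to 27.8 CPM. LPS_hi against LPS_lo gave no member call (0.278% of all genes were called), with differences such as -0.32 (SE 0.29) for Hmox1 and 0.40 (SE 0.41) for Gclc.

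At 4 h the direction for Hmox1 was the opposite of that at 24 h. No untreated culture was labelled 4 h, so LPS_hi at 4 h was set against the untreated 24 h cultures, where 29.3% of all genes were called, 5.45% higher and 23.8% lower. Hmox1 was 91.6, 185 and 325 CPM in 7 wells, and fell by 1.56 (SE 0.27, adjusted p = 2.0e-07). Gclc was 1.0, 23.3 and 36.8 CPM and fell by 2.48 (SE 0.38, adjusted p = 2.5e-09), and Gclm fell by 1.24 (adjusted p = 0.0093).

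Sqstm1 was 2672, 3512 and 6628 CPM at 4 h against 351, 1002 and 3578 CPM and rose by 1.99 (SE 0.27, adjusted p = 9.5e-12). Slc7a11 rose by 2.84 (SE 0.48) and Txnrd1 by 1.01 (SE 0.30). Against the cultures with CCL7 at 4 h, a chemokine, the same calls were made except for Txnrd1, at 0.75 (adjusted p = 0.18), and 18.7% of all genes were called. In middle wells alone, against CCL7, Gclm was not called, at -0.83 (adjusted p = 0.074). There Txnrd1 was called as higher at 1.47 and Srxn1 as lower at -1.45. With plate and edge terms, against untreated cultures, Srxn1 was called as lower at -1.31 and Txnrd1 was not called.

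At 72 h LPS_hi raised Slc7a11 by 2.53 (SE 0.40), Hmox1 by 1.53 (SE 0.23), Gsr by 1.17 (SE 0.31) and Sqstm1 by 1.09 (SE 0.22), and lowered Gclc by 1.04 (SE 0.32), where 16% of all genes were called. Hmox1 was 2920, 4533 and 6216 CPM in 13 wells, 10 of them at the edge, against 958, 1401 and 3701 CPM in 25 untreated wells. Sqstm1 was not called with plate and edge terms. In the 3 middle wells alone, where 30.4% of all genes were called, Gsr was at -0.11 and not called, and Gclm at 1.44 and Srxn1 at 1.68 were called instead. The difference between 72 h and 24 h of LPS_hi was called for no member over all wells (Srxn1 0.67, SE 0.40, adjusted p = 0.38), where 5.11% of all genes were called. In middle wells, where 21.4% of all genes were called, it was called for 4, Srxn1 at 2.00 and Gclm at 1.65 as higher and Prdx1 at -1.56 and Gsr at -1.53 as lower.

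Of the 39 other NRF2 targets 3 rose and 10 fell with LPS_hi at 24 h, with a median of -0.39 against -0.14 for all genes, and 5.25% of all genes rose and 10.9% fell. Slc40a1 was at -3.38, Gstm5 at -2.90, Ephx1 at -2.47 and Idh1 at -1.59. At 4 h none rose and 14 fell, where 5.45% of all genes rose and 23.8% fell. Among the regulators Maff rose by 4.15 and Keap1 by 1.28 at 4 h, and Nfe2l1 rose by 1.24 at 24 h. Of 15 ATF4 targets 6 rose at 24 h, among them Cebpb by 2.01 and Trib3 by 1.96, and 4 at 4 h. Microglia markers fell, 7 of 10 at 24 h and 5 of 10 at 4 h, and summed to 1803 to 4609 CPM with LPS_hi at 24 h. Perivascular macrophage markers summed to a median of 4.87 CPM with LPS_hi at 24 h and 74.7 CPM untreated, and 1 of the 3 fell. The part of both lists in the member values was not tested.

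In mice 8 members could be tested 4 h after LPS, Srxn1 and Nqo1 being below the filter on low values. Of these 3 were higher and 2 were lower, where 22.4% of the 9012 genes tested were called. Slc7a11 was 42.0, 43.3, 56.1 and 56.3 CPM in LPS mice and 14, 6.5, 8.9 and 6.0 CPM in PBS mice, and rose by 2.41 (SE 0.24, adjusted p = 3.7e-06). Txnrd1 was 23.5, 32.4, 35.8 and 35.5 CPM and 3.5, 6.5, 5.9 and 8.1 CPM, and rose by 2.25 (SE 0.24, adjusted p = 9.4e-06). Sqstm1 was 413, 448, 405 and 411 CPM and 308, 257, 273 and 247 CPM, and rose by 0.63 (SE 0.12, adjusted p = 0.0015). In these 3 genes every LPS mouse was above every PBS mouse.

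Both subunits of glutamate-cysteine ligase fell in the mice. Gclc was 29.95, 28, 20.8 and 27.1 CPM with LPS and 52.2, 51.8, 42.5 and 60.3 CPM with PBS, and fell by 0.94 (SE 0.17, adjusted p = 0.0011). Gclm was 42.2, 61.1, 54.7 and 43.7 CPM and 72.2, 71.9, 74.6 and 70.0 CPM, and fell by 0.52 (SE 0.15, adjusted p = 0.024). Neither gene overlapped between the groups, but Gclm lost its call at -0.45 to -0.52 when PBS mouse 1 or 3 or LPS mouse 1 or 4 was left out. Hmox1, at 14.4 to 53.5 CPM with LPS and 14.6 to 55.5 CPM with PBS, differed by -0.01 (SE 0.41, adjusted p = 0.98), and its groups overlapped almost fully. Gsr was at 0.36 (adjusted p = 0.41) and Prdx1 at 0.13 (0.61).

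Of the 11 regulators 4 rose in LPS mice, Maff by 4.18, Bach1 (a repressor of Hmox1) by 1.96, Mafk by 1.38 and Nfe2l2 by 0.81, and 2 fell, Keap1 among them by 0.71. Of 29 other NRF2 targets tested 1 rose, Fth1, the ferritin heavy chain, by 0.98, and 5 fell, and of 11 ATF4 targets 5 rose, among them Cebpb by 3.05 and Chac1 by 2.19. Neutrophil markers were higher in 3 of 5 genes and summed to 153 to 281 CPM with LPS against 74.8 to 153 CPM with PBS. Monocyte markers summed to 43.6 to 92.5 CPM with LPS and 17.2 to 40.8 CPM with PBS, without overlap, and 2 of the 3 tested were higher. LPS mouse 2 stood apart with erythrocyte markers at 5562 CPM, against at most 229 CPM in the other 7 mice, and without it 5 members were called as well. Markers of other brain cells had lower medians with LPS, with overlapping ranges. Medians with PBS and LPS were 937 and 465 CPM for oligodendrocytes, 994 and 723 CPM for astrocytes, and 86.0 and 39.5 CPM for neurons. Endothelial medians were 78.3 and 78.5 CPM. The part of any of these lists in the member values was not tested.

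**Figure D4:**
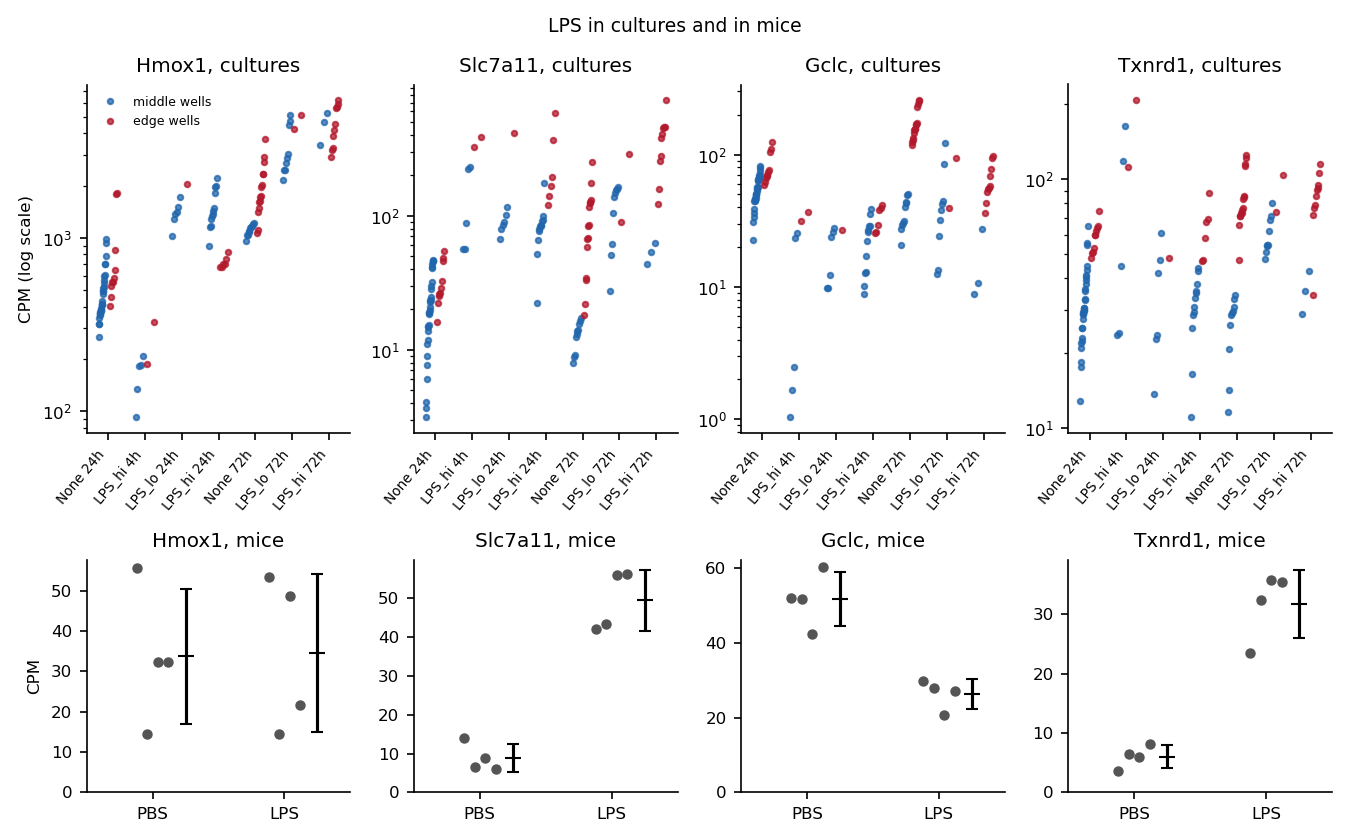
Upper panels give single cultures (blue in middle wells, red in edge wells, spread sideways in order of value) on a log axis of CPM, and lower panels give single mice with the mean and SD on a linear axis from 0. Hmox1 is at 91.6 to 325 CPM in cultures 4 h after LPS_hi and at 674 to 2224 CPM after 24 h, while in mice its groups overlap and Slc7a11, Gclc and Txnrd1 separate.

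With age none of the members tested was called. Nqo1, below the filter on low values, was not tested. It was 0 to 3.35 CPM (median 1.46) at 22 months and 0 to 2.07 CPM (median 0.36) at 2 months. Of the 9 tested in naive mice of 22 against 2 months none passed, where 3.24% of all genes did, and differences ran from -0.21 (Hmox1) to 0.51 (Gsr). Gsr was 11.1, 20.2 and 39.8 CPM (lowest, median and highest) in 13 mice of 22 months and 7.1, 14.6 and 22.0 CPM in 11 mice of 2 months, with an adjusted p of 0.23. It was higher in both library batches, by 0.38 and 0.53, and at 0.48 with batch as a term (adjusted p = 0.081). Hmox1 was at 0.30 in the first batch and -0.50 in the second, and neither passed (adjusted p = 0.63 and 0.084). Neutrophil markers summed to 350 to 4186 CPM (median 1245) at 22 months and 155 to 1198 CPM (median 589) at 2 months. Medians at 22 and 2 months were 121 and 58.4 CPM for monocyte markers, and 589 and 729 CPM for astrocyte markers. The part of these lists in the member values was not tested.

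Of 19 additions of another agent to LPS, TGFb at 72 h gave the most calls over all wells. Added to LPS_lo it lowered 7 members and raised none, where 2.92% of all genes were called. Gsr was 7.5, 20.8 and 24.0 CPM (lowest, median and highest of 8 wells) against 58.9, 87.1 and 175 CPM in 11 wells with LPS_lo alone, without overlap, and fell by 2.33 (SE 0.42, adjusted p = 8.5e-06). Srxn1 was 25, 49.3 and 74.9 CPM against 113, 233 and 812 CPM, also without overlap, and fell by 2.19 (SE 0.42, adjusted p = 4.2e-05). Slc7a11 fell by 2.42, Gclc by 1.55, Txnrd1 by 1.52, Sqstm1 by 1.20 and Hmox1 by 1.02. All 8 wells with TGFb lay in the middle of plates and 2 of the 11 with LPS_lo at the edge. The calls were 6 with plate and edge terms, without Hmox1 (3.5% of all genes called), and 7 in middle wells, with Gclm at -1.16 in place of Hmox1 (3.28%).

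The combination of IL4, IL10 and IL13 lowered Gsr by 1.87 and Sqstm1 by 1.17 when added to LPS_lo at 72 h (5.13% of all genes called), and 6 members with plate and edge terms, among them Slc7a11 by 2.52 and Gclm by 2.23 (5.33% of all genes called). Of the 5 wells with this combination and LPS_lo 3 lay at the edge, so that few were left in the middle. In those middle wells it lowered 8, all but Gclc and Nqo1, among them Slc7a11 at -3.41 and Gsr at -2.80 (14.1% of all genes called). IFNg lowered Slc7a11 by 1.94 and Sqstm1 by 1.09 (2.5% of all genes called). At 4 h norepinephrine raised Slc7a11 of LPS_hi cultures from 196 ± 133 CPM (SD, n = 7) to 810 ± 377 CPM (n = 8), by 2.27 (SE 0.60, adjusted p = 0.016), and Srxn1 by 1.68 (1.39% of all genes called). Both calls held with plate and edge terms and in middle wells. Nicotine gave 704 ± 284 CPM of Slc7a11 (n = 8) and a difference of 2.10 (adjusted p = 0.043; 1.08% of all genes called), but its 8 wells were all at the edge, and with plate and edge terms the difference was 1.42 (adjusted p = 0.057). ATP raised Gclc by 1.81 and Srxn1 by 1.75 (1.85% of all genes called), and in middle wells Gclc, at 1.81, was not called (adjusted p = 0.11).

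At 72 h without LPS the members were called lower more often than higher over all wells, and the balance was the reverse in both other fits. Of the 300 pairs of a member and a condition 30 rose and 78 fell over all wells, 43 rose and 22 fell with plate and edge terms, and 62 rose and 25 fell in middle wells. The shares of all pairs of a gene and a condition were 2.82% higher and 3.43% lower over all wells, 2.81% and 3.47% with the terms, and 3.03% and 8.11% in middle wells. Of the 42 conditions at 72 h 12 lay only in middle wells, whereas 15 of the 25 untreated wells lay at the edge. GABA, with 8 middle wells and no edge well, had 9 members called as lower (4.03% of all genes lower), 3 with plate and edge terms (1.25%) and 3 in middle wells (10.7%). Gclm in GABA wells was 109, 267 and 640 CPM (lowest, median and highest), against 243 to 366 CPM in untreated middle wells and 3335 to 6173 CPM in untreated edge wells. It overlapped the untreated middle wells and none of the untreated edge wells. TNFa alone at 72 h, in 3 middle wells of 1 plate, also had 9 members called as lower over all wells (16.5% of all genes lower). With plate and edge terms 3 were lower with TNFa (11.6%). In middle wells 3 were lower and 1 was higher with TNFa, where 25.4% of all genes were lower and 10.5% higher.

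The combination of TNFa and PGE2 at 72 h raised 6 members over all wells, Slc7a11, Gsr, Prdx1, Txnrd1, Srxn1 and Hmox1. Each of them was called too with plate and edge terms, together with Gclm and Nqo1 (8 in all, 3.81% of all genes rose), and in middle wells, together with Gclm, Nqo1 and Sqstm1 (9 in all, 3.28%). Slc7a11 was 501, 856 and 2220 CPM in its 8 wells (lowest, median and highest), above all 25 untreated wells at 7.9 to 251 CPM, and rose by 4.70 (SE 0.47, adjusted p = 1.2e-19), where 8.51% of all genes were called. P3C at 72 h raised Slc7a11 by 3.22, Gsr by 1.44 and Hmox1 by 1.35 over all wells (4.81% of all genes rose), and 7 members with plate and edge terms (4.52%) and in middle wells (3.52%).

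**Figure D5:**
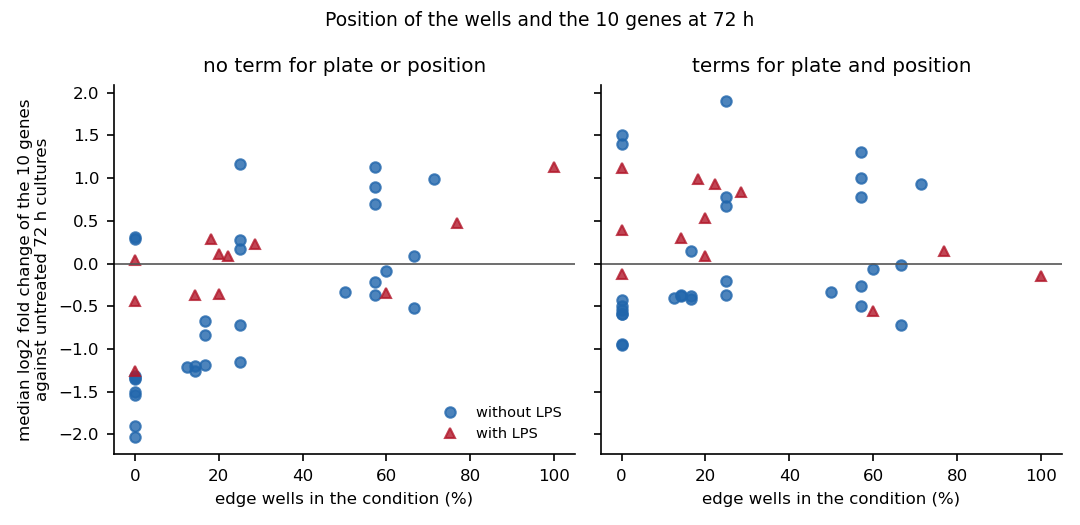
Each point is 1 of 42 conditions at 72 h; the horizontal axis gives the percentage of its wells at the edge and the vertical axis the median log2 fold change of the 10 genes against the untreated 72 h cultures, without (left) and with (right) terms for plate and position. GABA, at 0% edge wells, lies at -1.90 on the left and -0.94 on the right, and the combination of TNFa and PGE2, at 25%, at 1.16 and 1.90.

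Across conditions the members varied together to unequal degrees. Over the 45 group means at 24 h the correlation between 2 members on the log2(CPM + 1) scale had a median of 0.52 over 45 pairs, from -0.31 for Gclc and Slc7a11 to 0.90 for Gclm and Srxn1, and 42 pairs were above 0. In the 30 untreated middle wells at 24 h the median was 0.09, from -0.62 to 0.52, with 26 pairs above 0. Group means share plates, positions and library pools, and these values are descriptions. The genes whose group means at 24 h correlated most with the mean of the members, among 9365 ranked, were Esd (0.85), Abcc1, a glutathione conjugate exporter (0.83), Pgd, of the pentose phosphate pathway (0.78), Blvrb, biliverdin reductase B (0.77), and Cyb5a (0.73). Of the first 10, 5 were in the list of other NRF2 targets.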

How the data were processed

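Per the authors, reads were assigned to Ensembl mouse transcripts with Salmon 0.7.1 and the deposited values are CPM, summed by gene over its transcripts and scaled to 1000000 mapped reads. The labels name the build mm8. Whole reads could not be recovered (a median of 77.3% of culture values and 84.3% of mouse values were whole multiples of the smallest step), so no count test was run and depth is an estimate. No sample columns held identical values. Genes above 5 CPM in at least 4 samples (11 for age) were tested on log2(CPM + 1) with limma 3.58.1 (R 4.3.3; eBayes with trend; Benjamini-Hochberg over all genes tested), with 1 coefficient per group over 783 cultures. The culture labelled LPS_hi at the LPS_lo dose was left out. Methods were tested on simulated data. Well position (any edge or corner against middle) and plate came from the table header. The untreated edge fit could not be fitted at 72 h, so that value comes from all cultures. The named genes are the 10 members and, per list and comparison, at most 4 called genes with the largest change. Members and lists were chosen with earlier results of these data known. Alternatives covered pseudocount, filter, scaling, variance trend, pool, plate and position terms, middle wells, left-out samples and an exact rank-sum test. The rank-sum p-values were Bonferroni-adjusted over all genes tested, a stricter rule than Benjamini-Hochberg. Python 3.11.15, pandas 2.3.3, numpy 2.4.6 and matplotlib 3.10.9 were used.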

Additional observations from a re-analysis of the deposited data

Results flagged for a closer look

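Of 180 groups of 4 to 10 samples tested for a sample far from the others, 10 stood out, and chance alone marks about 1 in 20. With LPS_lo at 24 h Slc7a11 at 415 CPM, Gclm at 1268 CPM and Nqo1 at 3.64 CPM were the highest of 7 wells, all in the single edge well. With LPS_lo and resveratrol Srxn1 at 1531 CPM, Prdx1 at 9727 CPM and Sqstm1 at 7787 CPM were the highest of 8 wells, all in the edge well on MGm161010B. Nqo1 at 4.51 CPM was the highest of 7 wells with LPS_hi at 4 h, also in an edge well. With HDL at 24 h Sqstm1 at 1945 CPM was the highest of 8 wells. With IFNb at 24 h Gclc at 45.0 CPM, in the edge well, was the highest of 10 wells and Srxn1 at 18.3 CPM was the lowest.

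The difference between edge and middle wells was larger at 72 h than at 4 and 24 h for each member by a test of that difference in all cultures: Gclc by 1.39, Gclm by 1.22, Slc7a11 by 1.20, Srxn1 by 1.17, Gsr by 1.04, Nqo1 by 0.92, Prdx1 by 0.91, Hmox1 by 0.68, Txnrd1 by 0.55 and Sqstm1 by 0.48 on the log2 scale. Without the plates pooled by position 7 of 10 kept the call. The plates at 72 h held cells of the same lot, so that time and lot are largely mixed in this test. MGm161010B, the only plate of that lot at 4 or 24 h, had a median over the members of 1.41, within the 1.14 to 2.16 of the 72 h plates. The culture labelled LPS_hi at the LPS_lo dose at 72 h, which entered no comparison, had Hmox1 at 3717 CPM, Slc7a11 at 486 CPM and Sqstm1 at 5791 CPM, above all 25 untreated cultures at 72 h.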

How the results depend on the processing

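Of the alternatives' counts of members called, 176 stayed within 1.5 times the reported count, 10 were higher and 10 lower. With dopamine (2 called) the pool term gave 4 and the well type term 1. Middle wells gave 0, as did the exact rank-sum test with its Bonferroni adjustment. Hmox1 with dopamine turned to -0.018 in middle wells. Resveratrol with LPS_lo (1 called) gave 0 with a pseudocount of 0.5, median-ratio scaling, no variance trend or the pool term, and 2 with well type or plate and edge terms. Rapamycin with LPS_lo (1) gave 3 with plate and edge terms and 2 in middle wells. The rank-sum test, under the stricter Bonferroni adjustment, gave 2 for LPS_lo at 24 h and 1 for LPS_hi at 72 h, each with 5 reported. Test and adjustment changed together there, so their parts cannot be told apart. Middle wells gave 1 call for the resveratrol interaction and 4 for the LPS time interaction, each with 0 reported, and turned Gsr with LPS_hi at 72 h to -0.11. The edge comparison at 24 h (6) gave 10 in all cultures, with and without the plates pooled by position. LPS in mice (5) gave 2 at a minimum log2 difference of 1, and 4 to 5 when 1 mouse was left out. LPS additions (19) gave 29 with plate and edge terms. Single genes stayed called or stayed uncalled in 1493 settings, gained a call in 37 and lost it in 58, and a called gene turned in sign in 2. Uncalled genes counted as unchanged whatever their sign, such as Nqo1 with dopamine, at 1.07 as reported and -0.21 at its lowest. The causes were not tested. Plate, edge and middle-well settings were chosen after the data had been seen. No paired analysis was possible because the replicate numbers are accession order only and pair no samples. Depth limits Nqo1, at or near 0 in many wells, and Srxn1 and Nqo1 in mice.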
